A study of Ovis aries with 3 samples.

Results

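Transcripts of the proteasome and of the COP9 signalosome were measured in extracellular vesicles that sheep conceptuses shed into culture medium. The genes were chosen by name, as every row whose symbol begins with PSMA to PSMG or COPS followed by a digit, and 52 of the 25197 rows qualified. They comprise 16 core genes (7 PSMA and 9 PSMB), 18 regulatory genes (5 PSMC and 13 PSMD), 4 activators (PSME), 4 assembly chaperones (PSMG), 1 inhibitor (PSMF1) and 8 COP9 signalosome genes. The remaining row, PSMC3IP, encodes a protein of meiotic recombination that was named after its binding to PSMC3, so it was kept apart from the classes. None of the 52 symbols carried a copy number. No row was named PSMA1, PSMB6, PSMC6, PSMD9 or PSMB11, and these 5 genes are not analysed here.

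All 3 libraries belonged to 1 group: vesicles from intact conceptuses of day 14 of pregnancy, the embryo with its extraembryonic membranes, each kept for 24 h in its own dish of medium with serum depleted of exosomes. There was no control group and no RNA of the conceptus cells, and the labels give no animal for any library, which leaves it unknown how much of the spread among the 3 is technical. Vesicles were precipitated from filtered medium, and the cDNA was made with a kit for very small amounts of RNA. The values are RPKM-type, that is, scaled by the authors for gene length and library depth, so levels of different genes can be set side by side. With 3 libraries no two-sided exact sign-flip test can go below p = 0.25, and no p-value is given.

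The proteasome degrades proteins tagged with ubiquitin. Its barrel-shaped core is built of rings of alpha subunits (PSMA), which gate the entrance, and of beta subunits (PSMB), some of which cut the protein chain. The regulatory particle binds the tagged protein, removes the tag (PSMD) and unfolds the chain with a ring of ATPases (PSMC), and activators of the PSME family can dock on the core instead. The COP9 signalosome takes the ubiquitin-like protein NEDD8 off cullin ubiquitin ligases, and its subunits resemble those of the lid of the regulatory particle and of the translation factor eIF3. Interferons induce replacement catalytic subunits (PSMB8, PSMB9 and PSMB10) and the activators PSME1 and PSME2, and the day 14 conceptus of sheep secretes interferon tau.

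Summed values were 17480.7, 40060.3 and 9531.8 in libraries 1, 2 and 3. Judged from 1012 rows of the short U6 RNA, a value of 1 stood for about 2.36, 1.85 and 2.24 reads in the 3 libraries for a transcript of that length, and for more in longer ones. The trophectoderm marker KRT8 had 26.3, 138.9 and 27.3 and the interferon tau gene TP-1 had 6.7, 26.2 and 4.7. Of the leukocyte genes, PTPRC had 0.1 in each library, CD74 had 1.5, 1.3 and 0.1, and CD68 had 0.1, 1.5 and 0. The endoderm genes APOA1, APOA2 and GATA6 had 6, 10.3 and 6.3, 0.9, 5.4 and 2.9, and 0.2, 0 and 0.2. The epiblast genes SOX2, NANOG and POU5F1 had 1.5, 1 and 1.6, 0.2, 0.1 and 0.6, and 0.3, 0.3 and 0.1. The 99th percentile of 481 olfactory receptor rows, which serve as a measure of background, was 1.44, 1.02 and 1.74. Library 3 stood apart by its low sum and by many genes listed at 0, and the counts of detected members are also given without it.

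The core, the regulatory particle and the COP9 signalosome were all represented, but by only a part of their genes. A gene was called detected when each of the 3 libraries gave it at least 1, and 19 of the 52 were (36.5%), against 3.89% of all 25197 rows and 3.99% of the 18262 rows with a symbol. They were 7 of 16 core genes, 7 of 18 regulatory genes, 2 of 4 activators and 3 of 8 COP9 signalosome genes, and none of the chaperones, the inhibitor or PSMC3IP. A further 17 genes reached the value in 2 libraries, 11 in 1 and 5 in none. By library, 34, 47 and 21 of the 52 reached it in libraries 1, 2 and 3 (65.4%, 90.4% and 40.4%), against 9.37%, 13.6% and 7.88% of all rows. Without library 3 the count of detected genes was 34 (65.4%, against 7.29% of all rows), made up of 11 core, 12 regulatory, 2 activator, 5 COP9 signalosome and 4 chaperone genes. When at least 2 was asked of each library, 8 of the 52 met it (15.4%), against 1.89% of all rows. Of the 19 detected genes, 9 also exceeded the olfactory receptor percentile in every library: PSMA7, PSMA5, PSMB2, PSMB3, PSMB4, PSME3, PSME1, COPS6 and COPS8. That is 47.4% of the 19, against 60.8% of the 981 detected rows, and 17.3% of the 52, against 2.37% of all rows. None of the 7 detected regulatory genes did so. PSMD7 missed it only in library 3 (1.7 against 1.74) and PSMD4 only in library 1 (1.4 against 1.44), within the rounding of the values to 1 decimal.

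Among the alpha subunits, PSMA7 was the highest gene of the whole set. It had 9.8, 30.6 and 5.1 in libraries 1, 2 and 3, a mean of 15.2 ± 13.6 (SD, n = 3), and ranked 185th, 161st and 248th of all rows. PSMA5 had 5.1, 15.8 and 6.4, a mean of 9.10 ± 5.84 (SD, n = 3). PSMA5 was the higher of the pair in library 3 and PSMA7 in libraries 1 and 2, so their order did not hold in every library.

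The other alpha subunits were lower. PSMA2, the remaining detected one, had 1.6, 5.5 and 1.3. PSMA6 had 3, 6.6 and 0.5, and PSMA4 had 0.7, 3.1 and 0.8, each falling short of 1 in at least 1 library. PSMA3 had 2.7 and 14 in libraries 1 and 2 and was listed at 0 in library 3. PSMA8, which replaces PSMA7 in testis, had 0.1 in library 2 and was listed at 0 in the other libraries. The products of PSMA2 to PSMA7 enter the ring in equal number, yet their values spanned 14.0-fold in library 1 and 9.87-fold in library 2.

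Among the beta subunits, 4 were detected. PSMB2 had 5.4, 18.8 and 2.8 (mean 9 ± 8.59), PSMB3 had 3, 18.3 and 4.1 (mean 8.47 ± 8.53) and PSMB4 had 4.3, 13.6 and 3.2 (mean 7.03 ± 5.71; SD, n = 3 each), and their products are structural members of the ring. PSMB7, the subunit with trypsin-like activity, had 4.8, 12.3 and 1.4 (mean 6.17 ± 5.58; SD, n = 3). PSMB2 was above PSMB7 in 3 of 3 libraries, while the order of every other pair of these 4 genes differed between libraries. PSMB1, a structural subunit, had 0.6, 3.4 and 0.3, and PSMB5, the subunit with chymotrypsin-like activity, had 1.3, 3 and 0.6. Both reached their highest value in library 2, as did the 4 detected subunits.

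**Figure D1:**
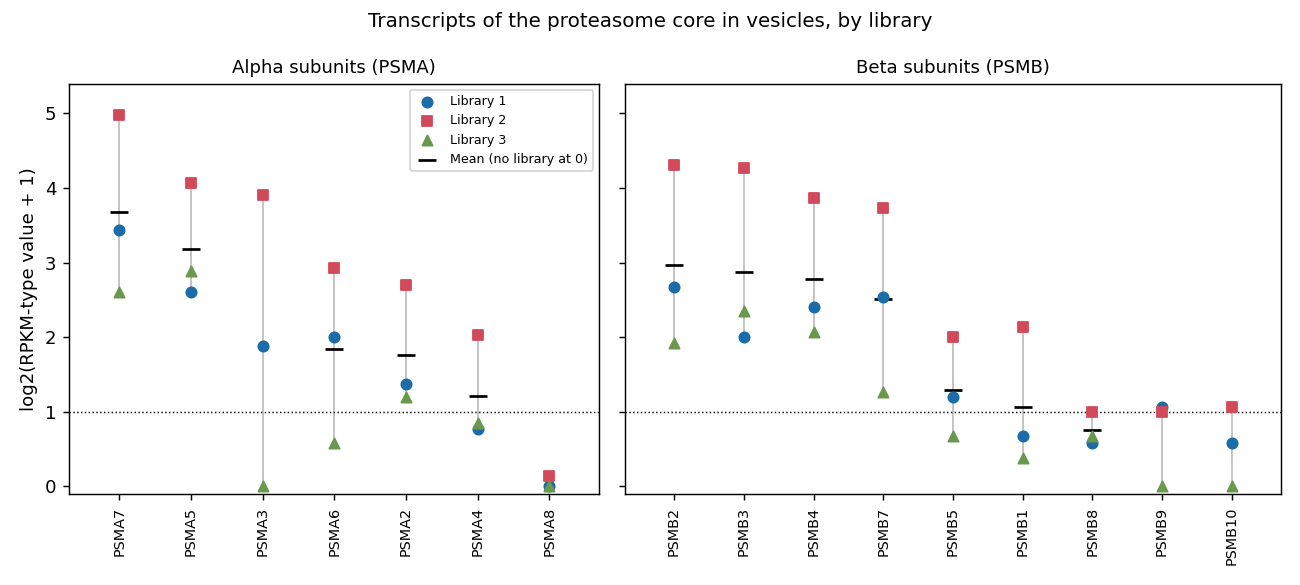
Levels of the 16 core genes as log2(RPKM-type value + 1), ordered by mean within alpha and beta subunits. Symbols mark the 3 libraries, black dashes the mean of genes with no library at 0, and the dotted line a value of 1; PSMA7 reaches 30.6 in library 2, and PSMA8 stays at 0.1 or less.

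The interferon-inducible catalytic subunits were low in every library. PSMB8 had 0.5, 1 and 0.6. PSMB9 had 1.1 and 1 in libraries 1 and 2 and PSMB10 had 0.5 and 1.1, and both were listed at 0 in library 3. None of the 3 was detected, and all of their values lay at or below 1.1. The median of log2(value + 1) over PSMB8, PSMB9 and PSMB10 was 0.58, 1.00 and 0 in libraries 1, 2 and 3, and that over their constitutive counterparts PSMB5 and PSMB7 was 1.87, 2.87 and 0.97. The immunoproteasome minus constitutive difference was -1.37 ± 0.45 (SD, n = 3) and below 0 in 3 of 3 libraries. It rests on few genes and lacks PSMB6, the other constitutive counterpart, which had no named row. PSMB5 alone stood much nearer to the inducible subunits than PSMB7 did.

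Of the ATPases, which form the unfolding ring of the regulatory particle, 2 of 5 were detected. PSMC5 had 2.2, 6.7 and 1.4 (mean 3.43 ± 2.86) and PSMC1 had 1.6, 2.3 and 1.1 (mean 1.67 ± 0.603; SD, n = 3 each). PSMC4 had 1.7 and 5.3 and PSMC2 had 1.2 and 4.3 in libraries 1 and 2, and both were listed at 0 in library 3. PSMC3 had 0.4, 1.6 and 0.9, the lowest mean of the ring. PSMC3IP, which is no subunit, had 0.2, 1 and 0.1.

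Among the non-ATPase subunits, PSMD7 led. This lid subunit, which carries an MPN domain without catalytic activity, had 6.9, 11.8 and 1.7 (mean 6.80 ± 5.05; SD, n = 3). PSMD14, the catalytic MPN subunit that cuts ubiquitin off the substrate and pairs with PSMD7, had 1.1, 3.2 and 1.2 (mean 1.83 ± 1.19; SD, n = 3). The difference of PSMD7 minus PSMD14 in log2(value + 1) was 1.91, 1.61 and 0.30 in libraries 1, 2 and 3, and thus above 0 in 3 of 3 libraries; the pair was picked after the values were seen. PSMD4, a ubiquitin receptor, had 1.4, 4.1 and 5.3, and PSMD1, a scaffold of the base, had 1.1, 1.6 and 1.7. These 2 genes were highest in library 3, against the order of most other members. PSMD8, a lid subunit, was the remaining detected gene with 1.5, 4.7 and 1.1 (mean 2.43 ± 1.97; SD, n = 3).

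The remaining lid subunits missed detection in different libraries. PSMD12 had 0.5, 3.4 and 2.5, PSMD6 had 0.9, 3.3 and 1.2, and PSMD13 had 2, 3 and 0.1. PSMD3 had 1.3, 1.6 and 0.1 and PSMD11 had 0.5, 1.6 and 0.3. PSMD2, the scaffold of the base that pairs with PSMD1, had 0.5, 1.2 and 0.1. Of the chaperones that guide assembly of the base, PSMD10 had 1.8 and 4.2 in libraries 1 and 2, PSMD5 had 0.1 and 0.9, and both were listed at 0 in library 3.

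Of the 4 activators 2 were detected, and their values did not follow the order of the libraries' sums. PSME3, a nuclear activator that interferon does not induce, had 3.4, 5.8 and 6.1 (mean 5.10 ± 1.48; SD, n = 3). PSME1, the alpha subunit of the interferon-inducible activator, had 2.2, 4 and 3.2 (mean 3.13 ± 0.902; SD, n = 3), and its partner PSME2 had 0.6, 1.7 and 0.5 (mean 0.933 ± 0.666; SD, n = 3). PSME4, which encodes a large single-chain activator, had 0.1 in each library. PSME3 was above PSME1 and PSME1 above PSME2 in 3 of 3 libraries, by 0.55 ± 0.18 and 1.13 ± 0.32 in log2(value + 1) (SD, n = 3). Among the 25 genes of the set with a mean of 2 or more, PSME1, PSME3, COPS8, COPS6 and COPS5 had the lowest SD of log2(value + 1) over libraries, 0.32, 0.38, 0.41, 0.61 and 0.66. The highest were those of PSMA3 (1.95), PSMG1 (1.37), PSMC4 (1.33), PSMB7 (1.24) and PSMB3 (1.22). The median SD was 0.96 for these 25 genes and 1.08 for all 1286 rows with such a mean. This order depended on the scale of the libraries. Scaled to equal sums, COPS5 had the lowest SD of the 25 (0.025), while PSME1 (0.75) and PSME3 (0.99) came 18th and 19th from the lowest. The SD of the activators' class median was 0.37 as deposited, the lowest of the core, regulatory, activator, chaperone and COP9 signalosome classes, and 0.43 when scaled, where that of the chaperones (0.67) was higher and those of the core (0.37), the COP9 signalosome (0.30) and the regulatory genes (0.18) were lower.

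The dedicated assembly chaperones of the core reached a value of 1 in libraries 1 and 2 and not in library 3. PSMG4 had 1.2, 6.2 and 0.4, and PSMG2 had 1.9, 3.1 and 0.4. PSMG1 had 1.1 and 5.6 and PSMG3 had 1.7 and 2 in libraries 1 and 2, and both were listed at 0 in library 3. The highest value of the 4 in library 3 was thus 0.4. PSMF1, an inhibitor of the core in vitro, was listed at 0 in library 1 and had 1.3 and 0.5 in libraries 2 and 3.

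The COP9 signalosome was detected through COPS6, COPS8 and COPS3. COPS6, the MPN partner without catalytic activity, had 2.4, 6 and 2.3 (mean 3.57 ± 2.11; SD, n = 3). COPS8 had 1.9, 3.9 and 2.1 (mean 2.63 ± 1.10) and COPS3 had 1.3, 4.1 and 1.2 (mean 2.20 ± 1.65; SD, n = 3 each), and both encode PCI-domain subunits. COPS5, the subunit that cleaves NEDD8 from cullins, had 1.7, 3.7 and 0.9 and missed detection in library 3. COPS6 minus COPS5 was 0.33, 0.57 and 0.80 in log2(value + 1), so here too the inactive MPN subunit was above its catalytic partner in 3 of 3 libraries. In eIF3, which holds a related MPN pair, EIF3F minus EIF3H was -0.08, -1.71 and 1.35 and showed no common sign; both of these pairs were also picked after the values were seen.

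The other signalosome genes were unevenly represented. COPS2 had 1.1, 4.9 and 0.2, and COPS4 had 0.3 and 4.6 in libraries 1 and 2 and was listed at 0 in library 3. COPS7A and COPS7B encode alternative versions of the same subunit. COPS7A had 0.4 and 0.1 in libraries 1 and 2, COPS7B had 0.1 in library 2, and they were listed at 0 in the remaining libraries. No value of this pair exceeded 0.4, while COPS2 and COPS4 exceeded 4 in library 2.

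**Figure D2:**
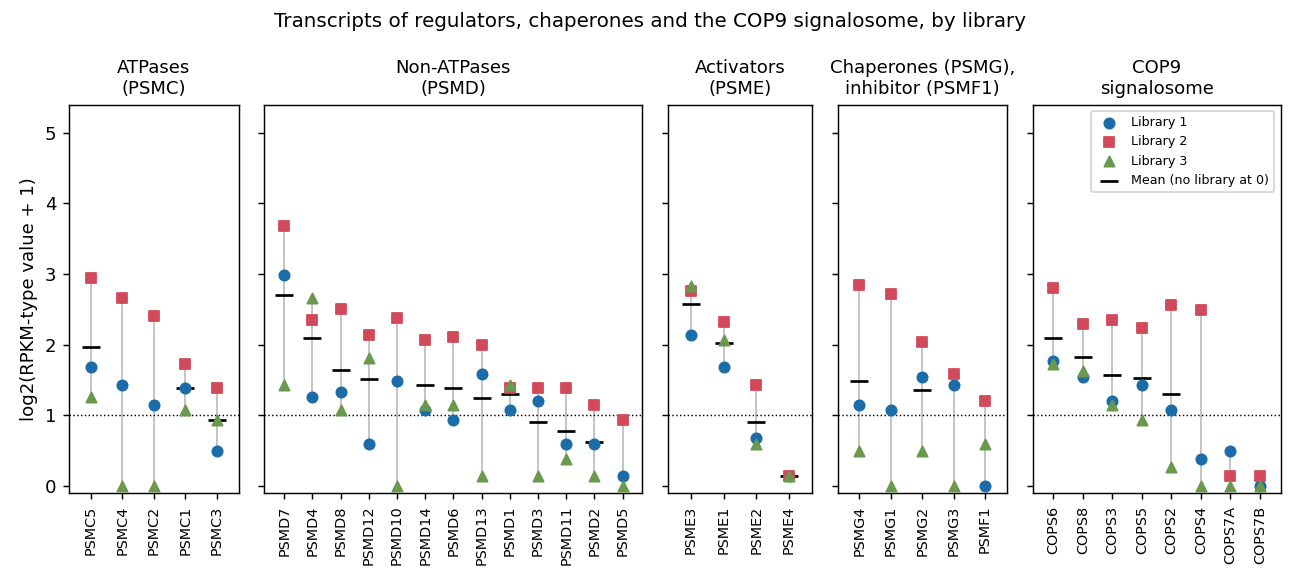
Levels of the regulatory, activator, chaperone, inhibitor and COP9 signalosome genes as log2(RPKM-type value + 1), with the 3 libraries as symbols, black dashes for the mean of genes with no library at 0, and a dotted line at a value of 1. PSMD4, PSMD1 and PSME3 are highest in library 3, and the 4 PSMG genes stay below 1 there.

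Set side by side over all their genes, the classes differed little, but the core median was higher without PSMA8, PSMB8, PSMB9 and PSMB10, as given below. The class median of log2(value + 1) was 1.63, 2.81 and 0.76 for the core in libraries 1, 2 and 3 (mean 1.74 ± 1.03; SD, n = 3). It was 1.17, 2.09 and 1.00 for regulatory genes (mean 1.42 ± 0.59), 1.18, 1.88 and 1.33 for activators (mean 1.46 ± 0.37) and 1.14, 2.32 and 0.59 for the COP9 signalosome (mean 1.35 ± 0.88; SD, n = 3 each). The core was above the COP9 signalosome in 3 of 3 libraries, by 0.39 ± 0.19 (SD, n = 3). Core minus regulatory was 0.46, 0.73 and -0.24 and core minus activator 0.45, 0.94 and -0.56 in libraries 1, 2 and 3, so the sign turned in library 3, and neither mean (0.32 ± 0.50 and 0.28 ± 0.77; SD, n = 3) exceeded the spread between libraries. Without library 2 the core minus activator mean was -0.055. Regulatory minus COP9 signalosome averaged 0.07 ± 0.32 (SD, n = 3), and -0.10 without library 3.

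Within the core and the regulatory particle the contrasts were of similar size. Over all their genes, alpha subunits were above beta subunits in 3 of 3 libraries, by 0.55 ± 0.33 (SD, n = 3), with medians of 1.89, 2.93 and 0.85 for alpha and 1.20, 2.14 and 0.68 for beta subunits. Without PSMA8, PSMB8, PSMB9 and PSMB10, an alternative chosen after seeing the data, the sign turned. The medians were then 1.94, 3.42 and 1.03 for the 6 alpha and 2.20, 3.80 and 1.59 for the 6 beta subunits, a difference of -0.40 ± 0.16 (SD, n = 3), below 0 in 3 of 3 libraries. The sign thus depended on whether these 4 low genes were counted. PSMA1 and PSMB6 had no named row. Rows without a symbol that are described as alpha or beta subunits, given further below, were in neither median. Whether either sign would hold with them was not tested. ATPases minus non-ATPases was 0.31, 0.34 and -0.14 in libraries 1, 2 and 3, so the sign turned in library 3. Its mean was 0.17 ± 0.27 (SD, n = 3), 0.096, 0.082 and 0.32 without library 1, 2 and 3, and -0.12 when PSMC3IP was counted as an ATPase. The choice of core genes mattered more. Without PSMA8, PSMB8, PSMB9 and PSMB10 the core median was 2.00, 3.80 and 1.23, the core minus regulatory difference 0.93 ± 0.74 and the core minus COP9 signalosome difference 0.99 ± 0.44 (SD, n = 3).

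**Figure D3:**
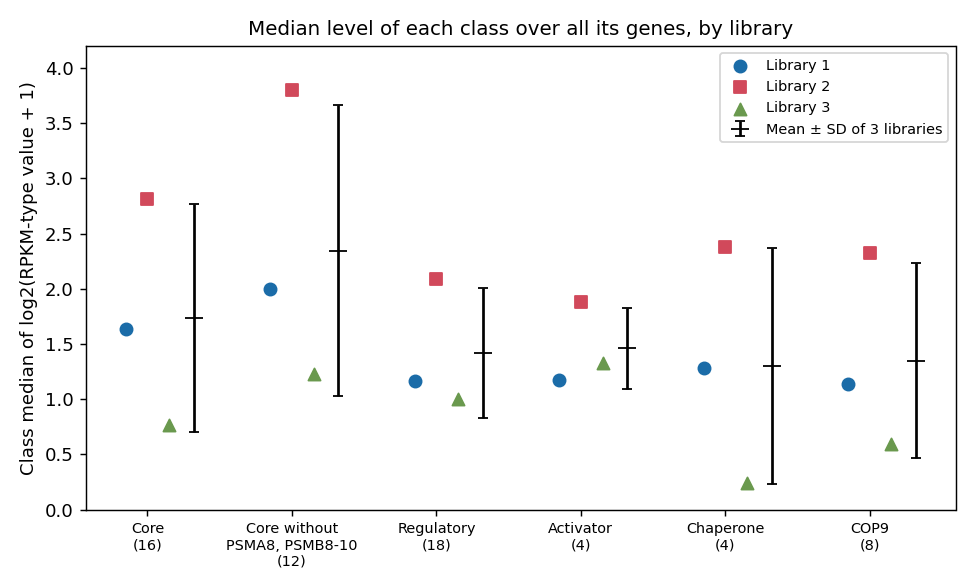
Median of log2(RPKM-type value + 1) over all genes of each class, with the number of genes in brackets, for each library (symbols) and as mean ± SD of the 3 libraries (bars). The core lies above the COP9 signalosome in every library, and in library 3 the activators (1.33) lie above the full core (0.76).

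Library 2, which had the highest sum, held the highest value of 43 of the 47 genes that reached 1 in any library (91.5%), against 63.8% of all 4519 such rows. Among detected genes it did so for 16 of 19 (84.2%), against 75% of 981 rows. The exceptions among the 47 were PSMD4, PSMD1, PSME3 and PSMB9. Each of the 47 reached 1 in library 2, and 11 of them did so in no other library. For those 11 the filter itself fixed library 2 as the highest, so the 91.5% is partly a product of the selection. With the libraries scaled to equal sums, an alternative chosen after seeing the data, library 2 was highest for 21 of the 47 (44.7%), against 32.3% of the 4519 rows. The genes and rows of this repeat were still those selected on the unscaled values. In the values as deposited, library 2 minus library 3 in log2(value + 1) was compared over detected rows. Its median was 1.21 over the 19 detected genes and 1.20 over the 981 detected rows, which is close. Detection asks for at least 1 in library 3, so both medians leave out genes that were low there. Over all 52 genes the median of log2(value + 1) was 2.185 in library 2 and 0.63 in library 3, a difference of 1.55. By the difference of each gene, detected core genes lay between 1.18 and 2.47. Detected COP9 signalosome genes lay between 0.66 and 1.21, and regulatory genes between -0.30 and 2.25. PSME1 was at 0.25 and PSME3 at -0.06, against quartiles of 0.22 and 2.20 for the detected rows. All detected core genes thus exceeded both detected activators in this difference.

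**Figure D4:**
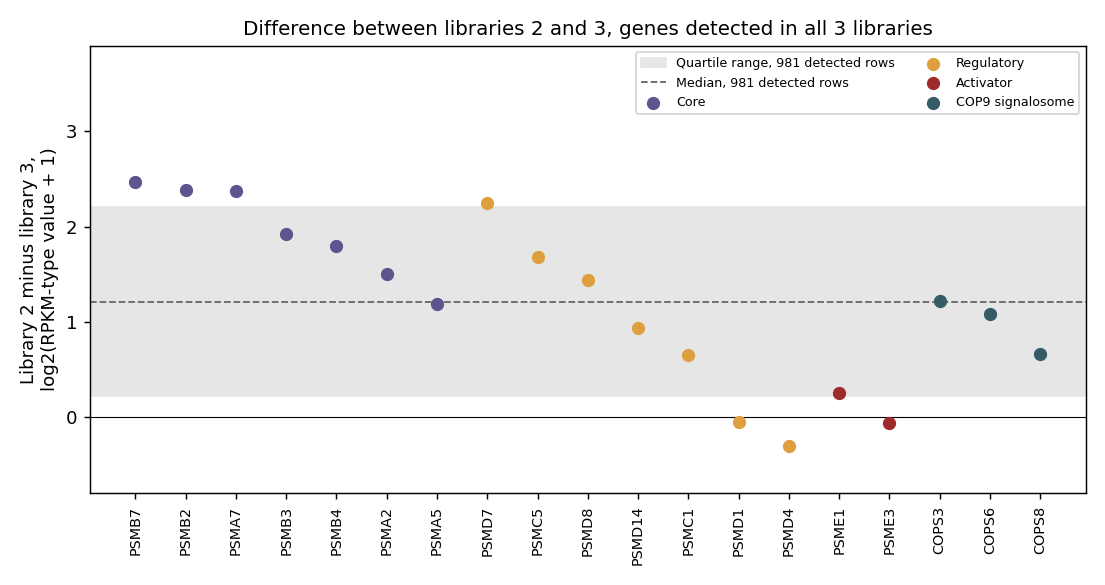
Library 2 minus library 3 in log2(RPKM-type value + 1) for each of the 19 detected genes, coloured by class. The grey band and dashed line give the quartile range and median of all 981 detected rows; PSMD4, PSME3 and PSMD1 lie below 0, and the core genes lie between 1.18 and 2.47.

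Shares of the summed value do not depend on the scale of a library. The 52 genes together made up 0.530%, 0.677% and 0.669% of libraries 1, 2 and 3 (mean 0.625% ± 0.0829; SD, n = 3). The core took 0.254%, 0.370% and 0.284% and the regulatory genes 0.153%, 0.162% and 0.196%. Activators took 0.0360%, 0.0290% and 0.104%, so that their sum was 14.2%, 7.83% and 36.5% of the core's sum. Chaperones took 0.0338%, 0.0422% and 0.00839%, or 13.3%, 11.4% and 2.95% of the core's sum. Library 3 therefore held the largest activator share and the smallest chaperone share of the 3 libraries, with 1 library behind each statement. COP9 signalosome genes took 0.0521%, 0.0684% and 0.0703%, which varied less than the activator and chaperone shares but not less than the regulatory share.

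**Figure D5:**
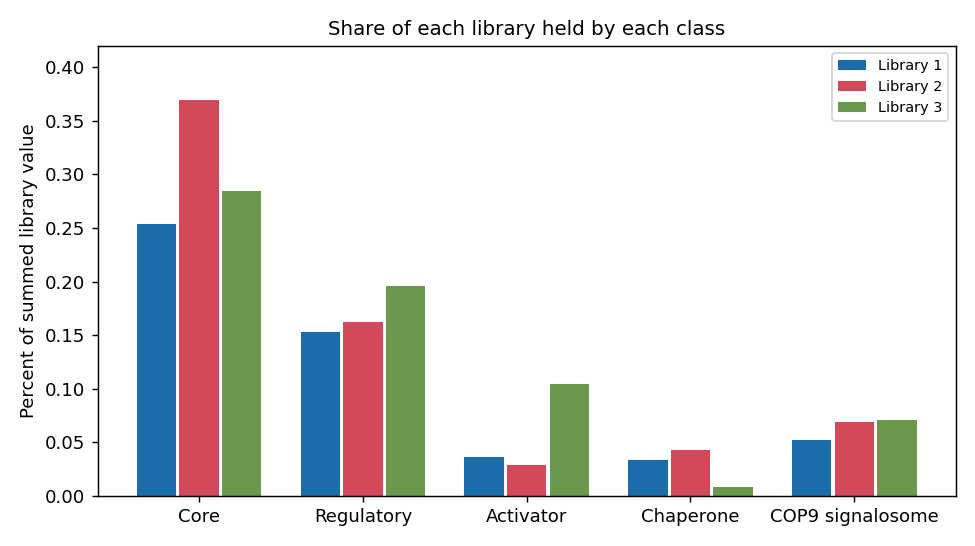
Percent of the summed RPKM-type value of each library held by each class, as bars from 0 with 1 bar per library. The activator bar of library 3 (0.104%) exceeds those of libraries 1 and 2, and its chaperone bar (0.00839%) is the lowest.

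Genes listed at 0 were concentrated in library 3. Of the 52 genes 13 were listed at 0 there, 3 in library 1 and none in library 2 (25%, 5.77% and 0%), against 48%, 39.6% and 34.1% of all rows, so library 3 had the most such rows overall as well. Of the 24 genes at 4 or more in library 2, 6 were listed at 0 in library 3 (25%), namely PSMA3, PSMC4, PSMC2, PSMD10, PSMG1 and COPS4, against 14.3% of the 1079 rows at 4 or more in library 2. The products of most of these genes are parts of a complex that every cell uses, and they are given here as listed at 0 and not as absent. Ranks of the 52 genes were closest between libraries 1 and 2, with a Spearman's rho of 0.82, against 0.56 for libraries 1 and 3 and 0.52 for libraries 2 and 3, a description over genes that share the same libraries. Over the 4519 rows at 1 or more in any library rho was 0.53, 0.29 and 0.15. Those rows were filtered, while the 52 genes include 5 that reached 1 in no library, so the levels of rho are not like for like.

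All 52 symbols were found in the RefSeq annotation of the assembly ARS-UI_Ramb_v3.0, a later build than that of the files. The genes lie on 19 chromosomes there, and no pair of them are neighbouring protein-coding genes. There 13 of the 52 overlap another annotated gene, among them the detected PSMA7, PSMC1, PSMD1, PSME1 and PSME3. Whether the counting used strand is not given in the sources used here, so reads of overlapping genes may be mixed. Separate transfer RNA genes of the same name overlap PSMA7 and PSME3 there, and they were not analysed here. Of the genes that overlap a detected gene, those with a row of their own were low: EMC9, which overlaps PSME1, had 0.3, 0.7 and 0.9, and AOC2, which overlaps PSME3, had 0.1, 0.2 and 0.1. NRDE2, which overlaps PSMC1, had 0.1 in each library, and HTR2B, which overlaps PSMD1, was listed at 0 in all 3.

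Rows outside the naming rule also belong to these complexes. A row described as a proteasome alpha subunit, ENSOARG00000006724, had 6.2, 18.4 and 2.8, a level close to that of PSMB2, and ENSOARG00000005948, described as a beta subunit, had 0.4, 4.8 and 0.9. Another row described as a beta subunit, ENSOARG00000010297, had 0.3 and 0.2 in libraries 1 and 2 and was listed at 0 in library 3. The files give no symbol for these 3 rows, and all were noticed after their values were seen. Of 20 genes that assist the proteasome 5 were detected (25%, against 3.89% of all rows). POMP, which helps to assemble the beta ring, had 7.6, 14.4 and 3.4 (mean 8.47 ± 5.55), the thioredoxin-like TXNL1 that binds the regulatory particle had 6.1, 11.5 and 3.1 (mean 6.90 ± 4.26), and UFD1L, a cofactor of the unfolding enzyme VCP, had 1.6, 9.1 and 2.2 (mean 4.3 ± 4.17; SD, n = 3 each). POMP thus met the detection rule that none of the PSMG chaperones met.

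Of 21 rows for cullins, NEDD8, their partners and COP9 signalosome subunits named outside the rule, 3 were detected (14.3%, against 3.89% of all rows). TCEB2, an adaptor of cullin ligases, had 12, 27.1 and 12.3, the RING subunit RBX1 had 2.6, 9.5 and 1.7, and NEDD8 itself had 2.7, 5.9 and 0.8. No cullin exceeded 0.8 in any library. GPS1 and MYEOV2 are the COP9 signalosome subunits in this list. GPS1 had 0.3, 0.7 and 0.1, and MYEOV2 was listed at 0 in library 1 and had 2.3 and 0.3 in libraries 2 and 3. Of 12 eIF3 subunits 4 were detected (33.3%, against 3.89% of all rows). EIF3G had 9.7, 24.6 and 1.1, EIF3K had 7.1, 21.7 and 4.1, and EIF3H, not detected, had 2.7, 14.7 and 0.1. The median of log2(value + 1) was 1.35 ± 0.88 over the 8 COP9 signalosome genes and 1.58 ± 1.03 over the 12 eIF3 subunits (SD, n = 3). The COP9 signalosome median was below that of eIF3 in libraries 1 and 2 and above it in library 3.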

How the data were processed

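RNA of conceptus vesicles was sequenced in 3 libraries of 1 group. The authors deposited 1 table of values per gene that names no unit; it was taken as RPKM, scaled by the authors for gene length and depth and rounded to 1 decimal, since low values step more coarsely in short genes and column totals vary. FPKM could not be told from it. Per the submitters' processing notes the genome was Oar_v3.1; the tools for alignment and counting were not given in the sources used here. Library numbers follow the labels' order, and columns were matched by title. The libraries were distinct: of 981 rows detected in all 3, between 14 and 25 had equal values in any pair.

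Values were analysed as deposited with Python 3.11.15, pandas 2.3.3 and numpy 2.4.6, and tested on simulated data. Class levels were medians of log2(value + 1) over all genes of a class. No filter, count model or set test was applied. The planned differences of class medians were taken within each library. Named were all detected genes, the 3 highest and the lowest of each class, a fixed set of catalytic and activator genes, and the 5 most and least variable; the other genes were added after their values were seen. Genes, lists and comparisons were chosen with earlier results of these data known. Alternatives were other detection values, pseudocounts, scalings, summaries and gene choices, and each library left out. Read counts per gene are unknown, so no counting interval is given.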

Additional observations from a re-analysis of the deposited data

How the results depend on the processing

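Of 154 values recomputed for 18 results, 130 moved by less than the spread between libraries or, for counts, by at most 1.5-fold; the causes of the other shifts were not tested. Detected genes numbered 8 of 52 at a detection value of 2 (15.4%, against 1.89% of all rows), with 0 regulatory and 1 COP9 signalosome gene. At 0.5 they numbered 27 of 52, against 7.56% of all rows, and the core count was 11. With 1 library left out, the counts were 19 to 34 for all genes, 7 to 11 for the core and 7 to 12 for regulatory genes. They were 3 to 5 for the COP9 signalosome, and each of these was highest without replicate 3. The count for activators stayed at 2. The 34 without replicate 3 were 65.4%, against 7.29% of all rows. The share of all rows was not computed without replicate 1 or 2, so those counts have no background beside them. With the pseudocount 0.1 the regulatory level was 0.77, the activator level 0.76, core minus COP9 signalosome 0.62 and immunoproteasome minus constitutive -2.66. Over genes at 1 or more in some library the activator level was 2.02, and core minus activator (-0.14) and regulatory minus COP9 signalosome (-0.13) turned negative. With means in place of medians, core minus COP9 signalosome was 0.63. Without the restricted core genes, core minus regulatory was 0.93 and core minus COP9 signalosome 0.99. In choices made after seeing the data, ATPase minus non-ATPase was -0.12 with PSMC3IP added, and alpha minus beta was -0.40 without the restricted core genes. Leaving out 1 library gave ranges of -0.055 to 0.70 for core minus activator and -0.10 to 0.22 for regulatory minus COP9 signalosome. As a share of rows with a symbol, the 52 genes took 1.02%. Scaled to equal sums, library 2 was highest for 21 genes and not 43. Summing numbered copies changed nothing, since there were none, so these repeats are among the 130 without being a check. The same holds where a setting left the genes of a result as they were. An example is immunoproteasome minus constitutive over genes at 1 or more in some library (-1.37). Of the 19 detected genes, 10 did not exceed the olfactory receptor percentile in every library, and values near 1 call for caution. How far depth limits such values was not tested. No paired analysis was possible because there was only 1 group.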
